A study of Rattus norvegicus with 16 samples.

Results

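The 7 genes described here belong to the integrated stress response and its ATF4 and CHOP branch: Chac1, Trib3, Ddit3, Atf3, Atf4, Asns and Ppp1r15a. They were found by their symbols in the platform annotation, which gives them 9 of the 15866 probe sets tested and makes them 7 of the 10411 genes measured. Trib3 has 3 probe sets; the one that reads highest on average represents it, and the others are given beside it. The genes were chosen by their changes from T0, since earlier results of these data had them higher at the later times, so these changes from T0 are a description with no test. The differences between the regions did not choose them and were tested.

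The values come from rat organotypic hippocampal slice cultures, which are slices of brain tissue kept alive in a dish. The series compares the CA1 and CA3 fields of the hippocampus over time, and its title names oxidative stress. The 8 groups are CA1 and CA3, each at T0, 30 min, 3 h and 12 h, with 2 arrays in each group that the labels call biological replicates. All 16 arrays carry total RNA labelled over 2 amplification cycles. The sources used here do not give the agent, its dose, how T0 relates to it, or the animals' strain, sex and age. No untreated culture of the same age is among the samples used here, so time in culture and the stress cannot be told apart.

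The integrated stress response starts when kinases such as PERK and GCN2 phosphorylate the translation factor eIF2, which lowers protein synthesis in general while the mRNA of Atf4 is translated better. ATF4 protein then turns on genes for amino acid supply, redox balance and, with its target CHOP, cell death. In neurons the pathway is known to respond to oxidative damage, lack of amino acids and misfolded protein in the endoplasmic reticulum. Much of it runs through translation and phosphorylation, which arrays do not measure.

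Upstream sequence is shown for the 3 members whose promoter holds a match to an ATF or C/EBP-ATF motif, since ATF4, ATF3 and CHOP bind such elements. RefSeq (GRCr8) gave a promoter for 6 of the 7 members, from 250 bases before to 50 after the gene's start; Atf3 had none in the table. The start that the table uses for Asns lies inside that gene as RefSeq spans it, so its window is not upstream of the whole gene. The motifs searched on both strands were TGATGNAA, the core of the C/EBP-ATF element, TGACGNAA, an ATF site variant, and TGACGTCA, the palindromic cAMP response element. They were chosen with these genes in mind. Of 33469 rat promoters of the same length, 3.98% held the first motif, 1.97% the second and 1.83% the third; the motifs do not overlap in the matches shown. Below are the 250 bases before the start of each gene, 5′ to 3′ on the gene's strand, with matches in capitals.
Chac1, GRCr8, plus strand, chr3:126795881-126796130: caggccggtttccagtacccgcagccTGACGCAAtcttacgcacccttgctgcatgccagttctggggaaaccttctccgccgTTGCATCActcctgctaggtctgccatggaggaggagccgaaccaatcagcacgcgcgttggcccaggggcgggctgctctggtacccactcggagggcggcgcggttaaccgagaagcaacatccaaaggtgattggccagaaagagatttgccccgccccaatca
Trib3, GRCr8, minus strand, chr3:161275534-161275783: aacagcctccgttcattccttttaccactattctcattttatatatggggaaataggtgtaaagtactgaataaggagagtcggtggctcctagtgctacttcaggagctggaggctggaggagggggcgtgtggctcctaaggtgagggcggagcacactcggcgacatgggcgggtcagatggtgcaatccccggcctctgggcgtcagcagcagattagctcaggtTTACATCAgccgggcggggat
Ppp1r15a, GRCr8, minus strand, chr1:105139597-105139846: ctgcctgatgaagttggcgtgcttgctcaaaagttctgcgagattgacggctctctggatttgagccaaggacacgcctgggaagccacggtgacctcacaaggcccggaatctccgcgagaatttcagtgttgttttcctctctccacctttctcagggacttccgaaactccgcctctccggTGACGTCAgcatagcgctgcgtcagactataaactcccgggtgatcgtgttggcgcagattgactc
The Chac1 promoter holds TGACGCAA from -224 to -217 and the reverse-strand form TTGCATCA from -167 to -160, counted from the first base of the gene as 0. The Trib3 promoter holds the reverse-strand form TTACATCA from -21 to -14, and the Ppp1r15a promoter holds TGACGTCA from -66 to -59. A match is a run of letters and was not tested as a binding site, and the promoters of Ddit3 and Atf4 hold no match in this window.

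Expression is given as the deposited log2 value, made by RMA, so a difference of 1 is a doubling. Arrays of a group correlated at 0.911 to 0.969 over probe sets. As a check of the dissected fields, the CA1 marker Wfs1 was higher in CA1 in 8 of 8 pairs, a pair being the CA1 and CA3 arrays that share a time and a replicate number, and Fibcd1 in 6 of 8, and the CA3 marker Grik4 was lower in CA1 in 7 of 8. None of the excitatory and general neuron, astrocyte or microglia markers averaged below 5, while 3 of 8 inhibitory neuron, 2 of 7 oligodendrocyte and 6 of 7 endothelial and mural markers did. The spike-in signal named further on is the mean of probe sets for Bacillus transcripts, which the array maker's protocols add to the RNA before labelling, and the GAPDH 3′ minus 5′ signal is a sign of RNA or labelling quality.

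The clearest time course was that of Chac1, the enzyme that breaks down glutathione inside the cell and a target of ATF4. At T0 the probe set read 7.25 and 7.0 in CA1 and 7.25 and 7.37 in CA3. At 30 min it read 8.42 and 8.33 in CA1 and 7.55 and 8.02 in CA3. At 3 h it read 8.14 and 8.64 in CA1 and 9.05 and 9.0 in CA3, and at 12 h 10.44 and 9.60 in CA1 and 10.75 and 10.68 in CA3. All 4 arrays of each later time stood above all 4 T0 arrays, and the 12 h arrays stood above those of every earlier time. The mean over both regions was 10.37 ± 0.53 at 12 h and 7.22 ± 0.16 at T0 (SD, n = 4 arrays each). Averaged over both regions, Chac1 lay higher than at T0 by 0.86 ± 0.20 at 30 min, 1.49 ± 0.20 at 3 h and 3.15 ± 0.20 at 12 h (moderated SE, 4 arrays against 4). The 12 h change is 8.88-fold, the 11th largest increase among 10411 genes. At 3 h, 47.4% of the 12 h change had been reached.

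Trib3, a pseudokinase induced by ATF4 and CHOP that dampens ATF4 activity, stayed near its T0 level at 30 min. Its main probe set read 6.12 and 6.06 in CA1 and 6.21 and 6.21 in CA3 at T0. At 30 min it read 6.80 and 5.81 in CA1 and 6.17 and 6.48 in CA3, a spread that covers the T0 values. At 3 h it read 7.06 and 7.14 in CA1 and 7.61 and 6.93 in CA3, and at 12 h 7.25 and 7.74 in CA1 and 7.56 and 7.60 in CA3. From 3 h on, every array stood above every T0 array. The change was 0.16 ± 0.23 at 30 min, which ran from -0.09 without the first CA1 array of that time to 0.41 without the second, 1.04 ± 0.23 at 3 h and 1.38 ± 0.23 at 12 h.

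The other Trib3 probe sets were also higher at 3 h and 12 h than at T0, with no overlap. The second averaged 5.06 ± 0.36 at T0, 6.26 ± 0.32 at 3 h and 6.19 ± 0.39 at 12 h (SD, n = 4). The third averaged 5.10 ± 0.21 at T0, 5.60 ± 0.15 at 3 h and 6.26 ± 0.10 at 12 h. In the second the change was as large at 3 h (1.20 ± 0.28) as at 12 h (1.13 ± 0.28), while the third had moved by 0.50 ± 0.13 at 3 h and by 1.15 ± 0.13 at 12 h. Levels of different probe sets cannot be compared with each other.

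**Figure D1:**
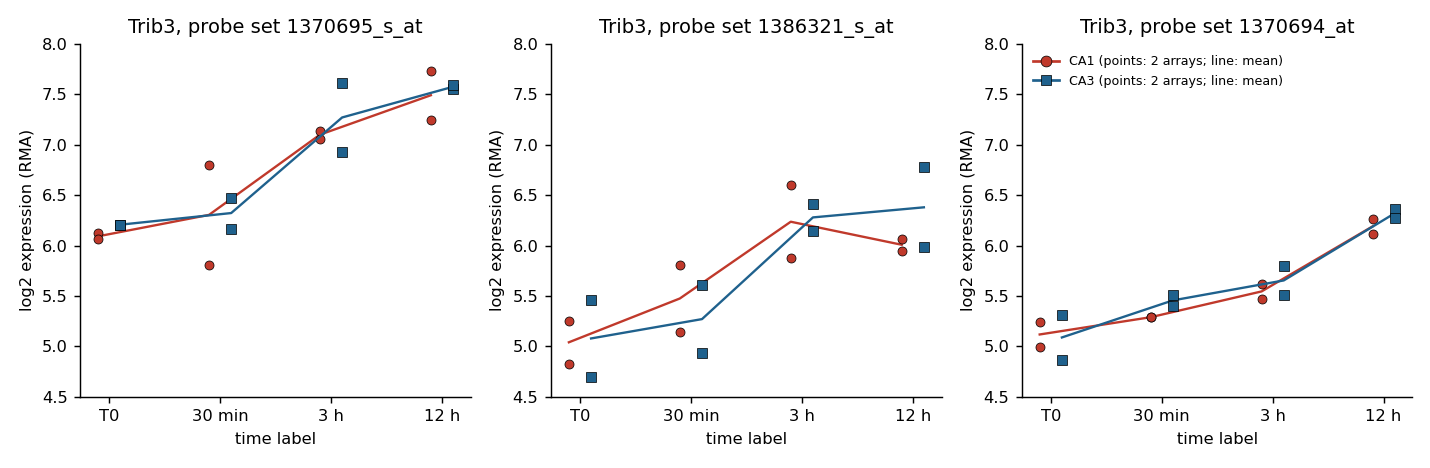
Expression of the 3 Trib3 probe sets (log2, RMA) against the time label, with a point per array and a line through the group means of CA1 and CA3, ordered from the highest mean on the left. In each probe set the 12 h arrays stand above all T0 arrays; the 30 min arrays overlap T0 in all 3.

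The next 3 genes encode transcription factors. Ddit3 encodes CHOP, which promotes cell death when stress lasts. It read 7.10 and 7.04 in CA1 and 6.84 and 7.26 in CA3 at T0, and 8.29 and 7.99 in CA1 and 6.97 and 7.56 in CA3 at 30 min. At 3 h it read 7.30 and 9.09 in CA1 and 8.43 and 9.30 in CA3, and at 12 h 7.88 and 8.73 in CA1 and 8.32 and 8.39 in CA3. The 3 h and 12 h arrays stood above all T0 arrays, and the 3 h arrays were the most spread. The change was 0.64 ± 0.36, 1.47 ± 0.36 and 1.27 ± 0.36 at 30 min, 3 h and 12 h. The 12 h level was lower than the 3 h level by less than the SE (-0.20 ± 0.36), and in CA1 it was the higher one. Without the second 3 h arrays, which had the highest GAPDH 3′ minus 5′ signal, the 3 h change was 0.81.

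Atf3 encodes a stress-induced factor of the same bZIP class that also responds to nerve injury. It read 6.81 and 6.97 in CA1 and 6.11 and 7.63 in CA3 at T0, then 9.97 and 7.86 in CA1 and 8.20 and 7.05 in CA3 at 30 min. It read 9.62 and 8.45 in CA1 and 9.69 and 9.39 in CA3 at 3 h, and 8.13 and 8.54 in CA1 and 9.12 and 9.13 in CA3 at 12 h. Its 3 h and 12 h arrays stood above all T0 arrays, although the T0 arrays spread over 1.52. Its mean was highest at 3 h, at 2.41 ± 0.49 above T0 or 5.31-fold, the 2nd largest increase among all genes at that time, and stood 1.85 ± 0.49 above T0 at 12 h. At 30 min the change was 1.39 ± 0.49, and 0.86 without the first CA1 array of that time. It was 2.20 without the second 30 min and 12 h arrays, which had the lowest spike-in signals.

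Atf4 itself encodes the pathway's central factor, which is controlled mainly by translation. Its mRNA read 9.21 and 9.57 in CA1 and 9.32 and 9.49 in CA3 at T0, and 9.87 and 10.14 in CA1 and 9.22 and 10.15 in CA3 at 30 min. At 3 h it read 10.11 and 9.88 in CA1 and 10.19 and 10.12 in CA3, and at 12 h 10.75 and 10.44 in CA1 and 10.36 and 10.82 in CA3. The 3 h and 12 h arrays stood above T0 without overlap. The change was 0.45 ± 0.21, 0.68 ± 0.21 and 1.19 ± 0.21 at 30 min, 3 h and 12 h; with the spike-in signal as a covariate it was 0.14 at 30 min and 0.74 at 12 h.

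Asns, asparagine synthetase, is an ATF4 target and supplies asparagine. It read 7.78 and 7.50 in CA1 and 7.68 and 7.79 in CA3 at T0, 8.39 and 8.19 in CA1 and 6.99 and 8.17 in CA3 at 30 min, 7.96 and 7.25 in CA1 and 6.59 and 7.73 in CA3 at 3 h, and 8.98 and 8.21 in CA1 and 9.30 and 8.70 in CA3 at 12 h. The 30 min and 3 h arrays overlapped T0, and the 12 h arrays lay above it. Its change was 0.25 ± 0.33 at 30 min, -0.30 ± 0.33 at 3 h and 1.11 ± 0.33 at 12 h. Leaving out single arrays moved the 30 min value between -0.05 and 0.54 and the 3 h value between -0.59 and -0.02.

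Ppp1r15a encodes GADD34, the stress-induced subunit that brings a phosphatase to eIF2 and so ends the response. It read 6.61 and 6.76 in CA1 and 6.63 and 6.82 in CA3 at T0, 7.19 and 7.37 in CA1 and 6.57 and 7.13 in CA3 at 30 min, 7.27 and 7.18 in CA1 and 6.70 and 7.62 in CA3 at 3 h, and 7.26 and 8.24 in CA1 and 7.17 and 7.32 in CA3 at 12 h. At 12 h all arrays stood above T0. It had the smallest 12 h change of the 7, 0.79 ± 0.25 or 1.73-fold, and 0.41 with the spike-in signal as a covariate. Its change was 0.36 ± 0.25 at 30 min and 0.49 ± 0.25 at 3 h, and the 3 h value was 0.26 without the second CA3 array of 3 h.

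**Figure D2:**
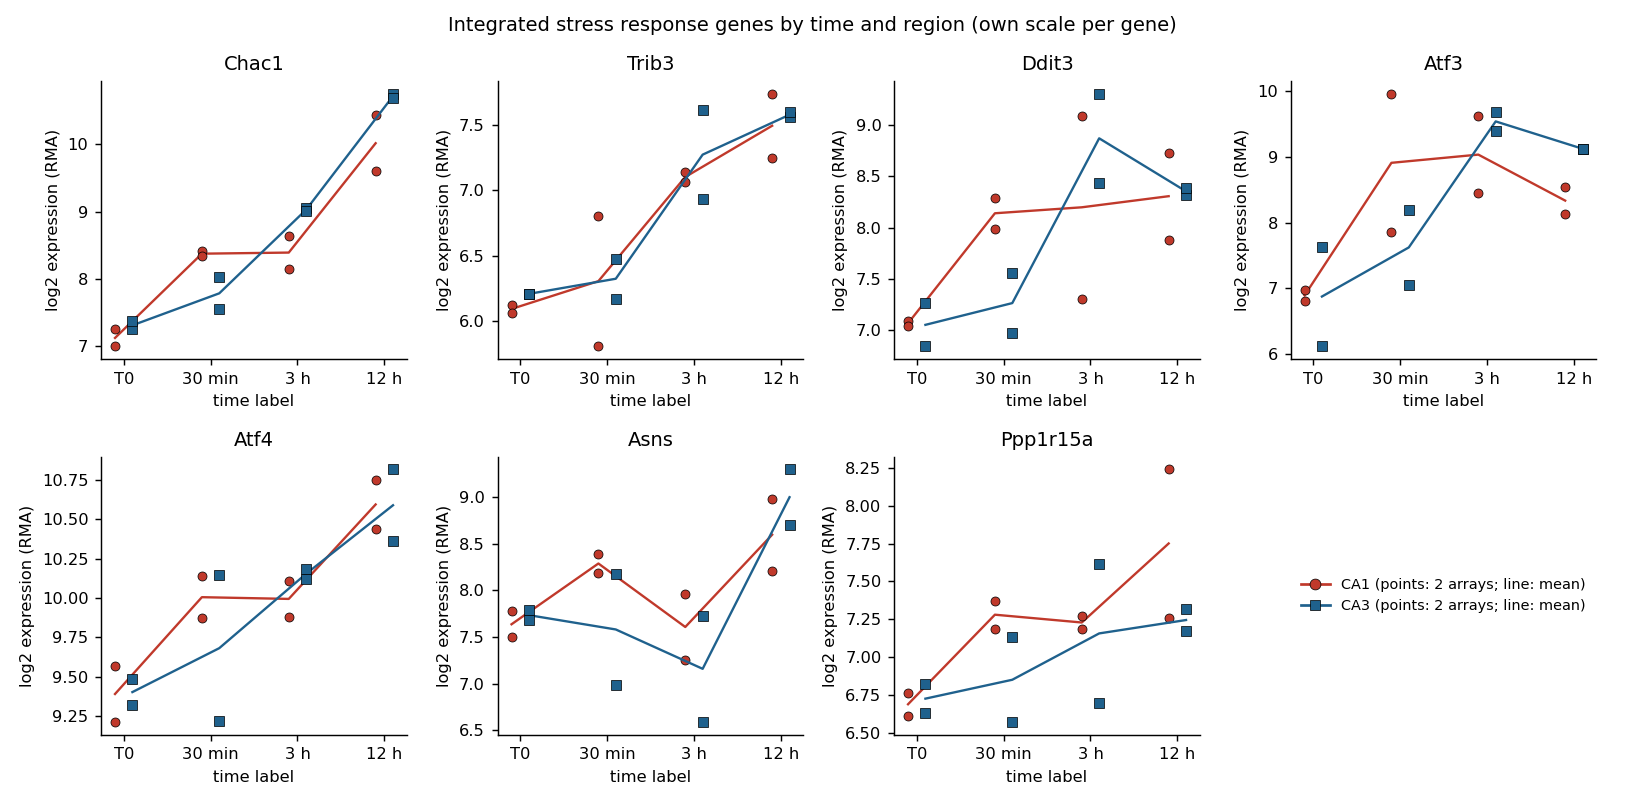
Expression of the 7 genes (log2, RMA) on each of the 16 arrays against the time label, in a panel per gene, with points for arrays and lines for the group means of CA1 and CA3. All 12 h arrays lie above all T0 arrays in each panel, and Chac1 climbs the most.

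Counted together, 7 of 7 members were higher than at T0 at 30 min, 6 of 7 at 3 h and 7 of 7 at 12 h, and their median changes were 0.45, 1.04 and 1.27, against -0.01, 0.02 and -0.03 over all genes. All 4 later arrays stood above all 4 T0 arrays for 1 member at 30 min, 5 at 3 h and 7 at 12 h, where 1.89%, 3.01% and 7.55% of all probe sets did so. The call rule of the fit, higher with adjusted p under 0.05, was met by 0, 1 and 3 members at the 3 times, where 0.0063%, 0.0252% and 0.838% of all probe sets did; these contrasts chose the members, so the counts carry no support. With each CA1 and CA3 pair counted as 1 sample, 0 members were called.

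**Figure D3:**
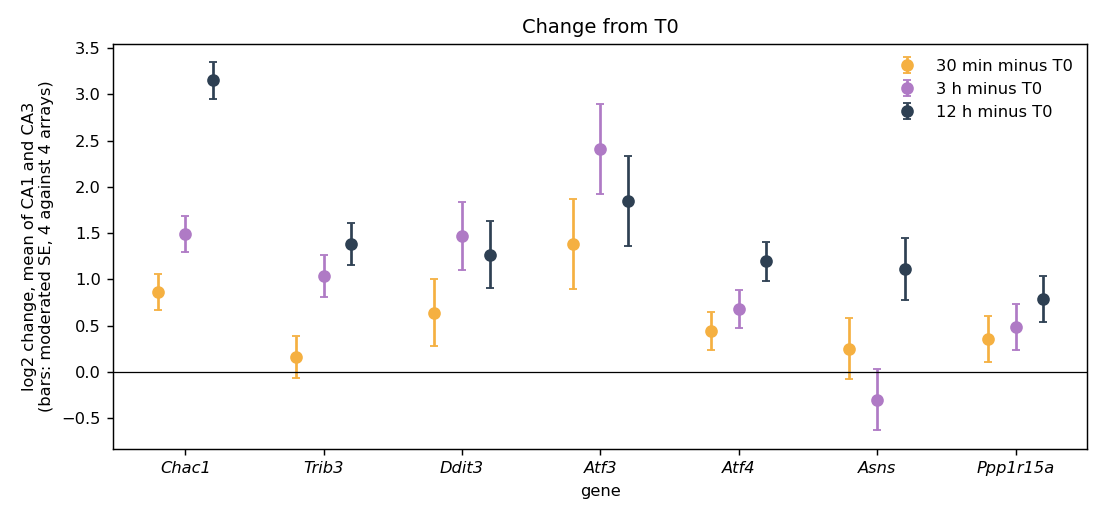
Change from T0 of the 7 genes, as the mean of CA1 and CA3 (log2), with bars of 1 moderated SE (4 arrays against 4). Chac1 is highest at 12 h, at 3.15, while the mean of Atf3 is highest at 3 h, at 2.41, and Asns lies near 0 until 12 h.

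Cell-type markers and array quality moved with the same times. In bulk RNA, a change in the number of cells of a type and a change in RNA per cell cannot be told apart. The 10 measured excitatory and general neuron markers were higher at 12 h in 10 of 10 cases, with a median change of 2.19, and their mean ran from 8.37 to 8.97 at 12 h, against 5.37 to 7.97 at T0. The microglia markers were lower in 9 of 10 cases, at 5.89 to 7.23 at 12 h against 7.72 to 8.20 at T0, and the dividing-cell markers in 8 of 8, at 5.67 to 6.22 against 7.47 to 8.11. The inhibitory neuron markers were higher in 7 of 8 cases, with a median of 0.43, and the astrocyte markers lower in 6 of 7, with a median of -0.30. Of all genes, 44.8% were higher at 12 h. The Bacillus spike-in signal averaged 4.92 at 12 h and 6.58 at T0. The part of these shifts in the members' changes was not tested. The values with the spike-in covariate given above separate it from time only in part. Its signal ran from 4.45 to 5.39 at 12 h and from 6.29 to 6.85 at T0. Over the 16 arrays, which share times and groups, the members correlated with the excitatory and general neuron mean at 0.07 (Atf3) to 0.71 (Chac1) and with the microglia mean at -0.77 (Ppp1r15a) to -0.27 (Atf3).

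CA1 and CA3 were compared next, since the labels set the regions against each other and the vulnerability of CA1 neurons is well known. Of 35 comparisons of the members between CA1 and CA3 (7 genes, over the 4 times together and at each of them), 0 passed the threshold by limma, with adjusted p of 1 in each case over all probe sets. The fit on differences within pairs gave a lowest adjusted p of 0.551. Across all probe sets, limma called 0 in any of these contrasts, with 510 (3.21%), 115 (0.725%), 324 (2.04%), 249 (1.57%) and 205 (1.29%) at an unadjusted p under 0.05 over the 4 times, T0, 30 min, 3 h and 12 h. Of the members' 35 comparisons, 2 had such a p, those of Chac1 at 3 h and 12 h. Within pairs 5 did, those 2 and Atf3, Ddit3 and Chac1 at 30 min, where 10.6%, 3.96%, 6.48%, 5.58% and 4.47% of all probe sets had one over the 4 times and at each time in turn. The pair fit called 33 over the 4 times (0.208%) and 1 at 12 h, none of them a member.

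The members' values at 30 min leaned towards CA1, without passing. At that time 6 of 7 members were higher in CA1 than in CA3, against 47.2% of all genes, and 7 of 7 changed more from T0 in CA1, against 46.6% of all genes. These counts take 1 probe set per gene. For Trib3 the change was larger in CA1 by 0.10 ± 0.45 in the main probe set and 0.24 ± 0.55 in the second (moderated SE). In the third it was smaller in CA1, at 0.17 against 0.37 in CA3. Atf3 differed by 1.29 (95% interval -0.24 to 2.82, or 0.48 to 2.10 within pairs) and Ddit3 by 0.87 (-0.27 to 2.02, or 0.18 to 1.57 within pairs). Chac1 differed by 0.59 (-0.02 to 1.20, or 0.01 to 1.16 within pairs) and Asns by 0.71 (-0.33 to 1.74, or -0.25 to 1.66 within pairs). The intervals within pairs leave out 0 for Atf3, Ddit3 and Chac1, but they are not adjusted for the number of probe sets, and the lowest adjusted p is the one given above. The first pair of arrays carried most of it: 7 of 7 members were higher in CA1 in that pair, with a median of 0.87, and 5 of 7 in the second, with a median of 0.24. The spike-in signal was 6.36 in CA1 and 6.68 in CA3 in the first pair, and 4.51 and 4.26 in the second. Its part in this split was not tested. CA1 and CA3 arrays did not overlap for 4 of 7 members at 30 min, where 26.3% of all probe sets did so.

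Cell-type markers also changed by different amounts in CA1 and CA3 between T0 and 30 min. Their changes from T0 were larger in CA1 for 10 of 10 excitatory and general neuron markers (median 0.89) and 9 of 10 microglia markers (median 0.51), and smaller in CA1 for 7 of 7 oligodendrocyte markers (median -0.71) and 8 of 8 dividing-cell markers (median -0.63). At T0 the neuron markers already averaged lower in CA1, at 6.07 and 5.37, than in CA3, at 7.97 and 6.39. The members' median difference between the regions at T0 was -0.04. In the first 30 min pair the neuron markers averaged 6.89 in CA1 and 5.96 in CA3, and in the second 7.74 in CA1 and 8.60 in CA3. None of these markers passed the test, and their part in the members' values was not tested.

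At later times the order was not kept. Chac1 was lower in CA1 than in CA3 by 0.64 at 3 h (95% interval -1.25 to -0.03) and by 0.70 at 12 h (-1.31 to -0.09), in both pairs at each time, and limma's adjusted p was 1. Atf3 was also lower in CA1 in both pairs at each time, by 0.07 and 0.94 at 3 h and by 0.99 and 0.59 at 12 h. So was the mean of the excitatory and general neuron markers. At 3 h it was 5.465 in CA1 against 6.60 in CA3, and 7.24 against 8.32 in the second pair. At 12 h it was 8.41 against 8.80, and 8.37 against 8.97. Its part in the Chac1 and Atf3 differences was not tested. The intervals for the other members at 12 h all held 0, from -0.79 for Atf3 (-2.32 to 0.74) to 0.51 for Ppp1r15a (-0.27 to 1.28). For Atf4 at 12 h the interval, -0.64 to 0.65, leaves out a difference of 1 doubling. The 21 tests of whether a member's change from T0 differed between the regions gave 0 past the threshold, with adjusted p of 1 in both fits. Within pairs the Atf3 change at 30 min was larger in CA1 by 1.27 (0.13 to 2.42), at an adjusted p of 1. In the fit without pairs 133 (0.838%), 55 (0.347%) and 71 (0.447%) of all probe sets had an unadjusted p under 0.05 at 30 min, 3 h and 12 h, and none of the 21 members' tests did. In simulated data of independent arrays the fit without pairs recovered 40.8% of 4-fold and 3.2% of 2-fold differences of this kind at 12 h. By that fit such differences could mostly not be detected, and the fit within pairs was not simulated.

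**Figure D4:**
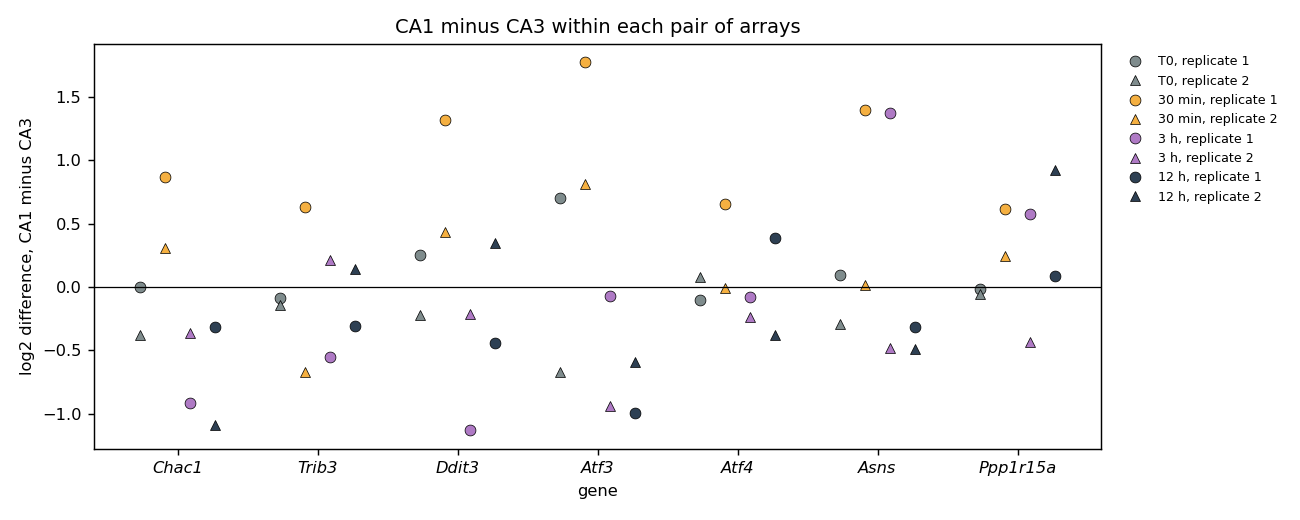
CA1 minus CA3 difference (log2) for each gene within each of the 8 pairs of arrays, coloured by time and shaped by replicate number. Both 30 min points lie above 0 for 5 of the 7 genes. Across the 7 genes the points of 3 h and 12 h lie on both sides, while those of Chac1 and Atf3 all lie below 0.

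The other genes of the pathway were taken as 7 lists, of which 95 of 113 genes were measured. At 12 h 5 rose and 2 fell with adjusted p under 0.05 by limma, or 7.37% of the 95, where 2.07% of all probe sets were called in either direction. At 30 min and 3 h 0 of the 95 were called, where 0.107% and 0.183% of all probe sets were, with 17 and 9 at an unadjusted p under 0.05, and 34 at 12 h. Over all probe sets 7.46%, 9.09% and 18.2% had such a p at the 3 times. With pairs counted as 1 sample, 0 were called at any time, with 10, 5 and 24 at an unadjusted p under 0.05, where 3.96%, 4.99% and 10.5% of all probe sets had one. The 12 h count fell to 1 without either CA1 array of T0, to 0 without the second CA3 array of T0 or of 12 h, to 2 without the first array of 12 h in either region and to 1 without the second CA1 array of 12 h; it was 12 without either CA3 array of 30 min.

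In the amino acid list, 13 of 15 genes were higher at 12 h, with a median of 0.66. Of all genes, 44.8% were higher at 12 h, with a median of -0.03. Slc7a1, a carrier of cationic amino acids, rose by 1.56 (adjusted p = 0.0201, limma), or 0.93 in the mean over its probe sets (adjusted p = 0.037), and Slc7a5, the light chain of the large neutral amino acid carrier LAT1, rose by 0.88 (adjusted p = 0.0182). Slc7a5 read 7.09 and 6.94 in CA1 and 6.68 and 7.15 in CA3 at 12 h, against 6.09 and 6.09 in CA1 and 6.0 and 6.15 in CA3 at T0, with no overlap. Bcat1, which starts the breakdown of branched-chain amino acids, was at 1.70 (adjusted p = 0.376) and at 1.14 in the mean over its probe sets. Of the aminoacyl-tRNA synthetases, 10 of 13 were higher, with a median of 0.35 and 0 called; Nars1 was at 1.02 (adjusted p = 0.0525) and Aars1 at 0.76 (adjusted p = 0.0934).

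Among the bZIP partners, Jun, which pairs with ATF3, rose by 1.15 (adjusted p = 0.024), and Nfe2l2, the NRF2 gene of the antioxidant response, was at -1.75 (adjusted p = 0.198). Among the stress and cell death targets, Herpud1, an endoplasmic reticulum protein that assists protein degradation, rose by 1.37 (adjusted p = 0.0321). Sqstm1, the autophagy receptor p62, rose by 1.23 (adjusted p = 0.0447); the mean over its probe sets was at 0.41 (adjusted p = 0.0925). Ddit4, an inhibitor of mTORC1, was at 1.48 (adjusted p = 0.201). The median of these 2 lists was 0.02 and 0.05.

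The ATF6 and XBP1 arms of the unfolded protein response lay lower, with 4 of 15 genes higher, against 44.8% of all genes. Their median was -0.45 and 0 were called. Sdf2l1 was at -1.36 (adjusted p = 0.0566, limma) and Creld2 at -1.25 (adjusted p = 0.0695). In the eIF2 list, Dnajc3, the PERK inhibitor p58IPK, fell by 1.40 (adjusted p = 0.030), and Eif2b4, a subunit of the exchange factor, was at 0.87 (adjusted p = 0.112). In the glutathione list, Oplah, which recycles 5-oxoproline, fell by 1.34 (adjusted p = 0.0261), and Ggt7 was at 1.13 (adjusted p = 0.0904). The eIF2 and glutathione medians were 0.03 and -0.02. With the spike-in signal as a covariate, none of the 7 called genes passed. Slc7a1 was then at 1.05 (adjusted p = 0.315), Sqstm1 at 0.65 (adjusted p = 0.508) and Dnajc3 at -0.83 (adjusted p = 0.393). Of the genes that had not passed, Bcat1 was then at -0.48, Ddit4 at 0.55, Nfe2l2 at -1.01, Sdf2l1 at -0.83 and Creld2 at -0.48. Aars1 was at 0.78, Nars1 at 0.79, Ggt7 at 0.81 and Eif2b4 at 0.64. The spike-in signal did not overlap between T0 and 12 h, so this fit could separate it from time only in part. The lists were written with results of these data known, and no list was tested as a set.

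**Figure D5:**
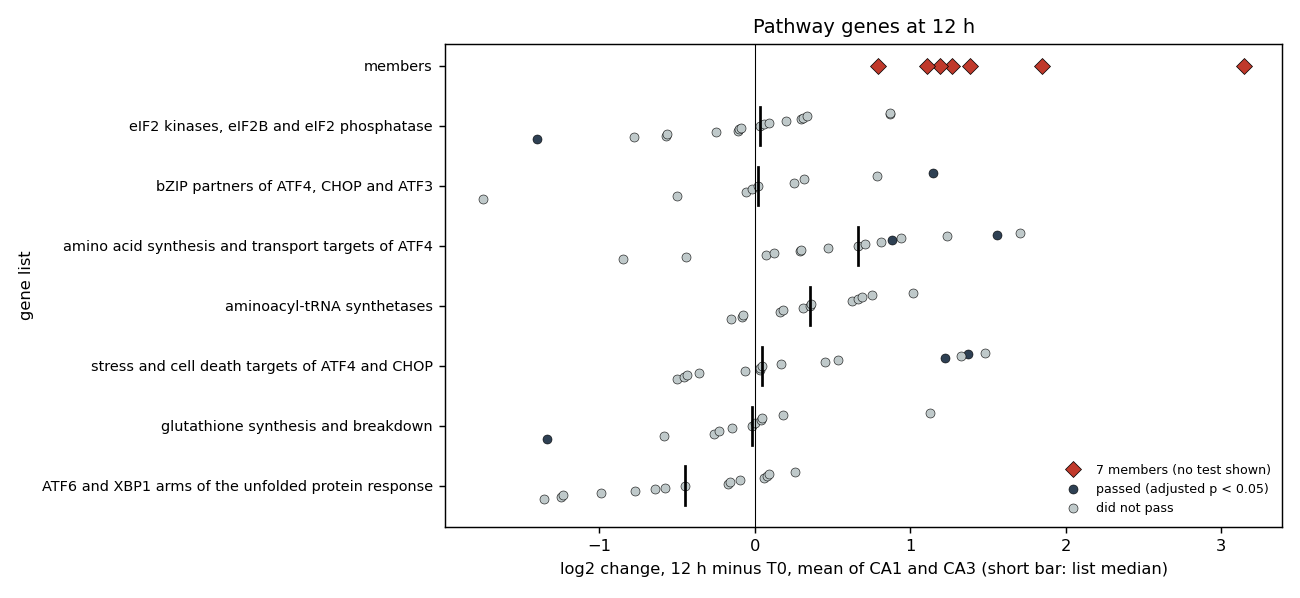
Change at 12 h from T0 (log2, mean of CA1 and CA3) of the 7 genes, with no test, and of the 95 measured pathway genes by list, dark where adjusted p was under 0.05 by limma. Short bars mark list medians, which run from -0.45 for the ATF6 and XBP1 arms to 0.66 for amino acid genes.

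Genes with time courses most like that of Chac1 over the 16 arrays were, with the members left out, LOC102549726 (r = 0.92), Gadd45b (0.92), Brinp1 (0.90), Inhba (0.89) and Fbxl15 (0.88). With the members counted in, Atf4 ranked 4th of 10410 genes on that scale, with r = 0.89, and Trib3 25th, with r = 0.83; the other members had r of 0.57 to 0.66. Within groups, after the group means were removed, the Chac1 correlation with Atf4 was 0.35 and with Trib3 -0.06, so the likeness lay mainly in the shared time course. The genes most like the mean of the 7 standardised members were Gadd45g (0.96), Gadd45b (0.94), Tet2 (0.93), Rnf185 (0.89) and Fosb (0.89). Gadd45b averaged 9.32 at 12 h and 6.05 at T0, and Gadd45g 9.54 at 12 h and 6.13 at T0. All these correlations share the same 16 arrays and times and are a description only.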

How the data were processed

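RNA of 16 arrays (8 groups of 2) was measured. The authors deposited log2 expression values made with RMA, per the submitters' processing notes; its version is not given in the sources used here. RMA equalises the arrays' distributions, so changes are relative to the other genes, and the small number of arrays limits precision. Of 15923 probe sets, 57 controls were set aside, leaving 15866. The platform annotation gave 1 gene for 12783, and the highest-mean probe set stood for a gene. limma 3.58.1 (R 4.3.3) fitted 8 group means (8 residual degrees of freedom, prior 2.55), with Benjamini-Hochberg adjustment over all probe sets and a threshold of 0.05.

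The members, lists and naming rule were chosen with earlier results of these data known. The text names the 7 members, pathway genes past the threshold, the 2 largest 12 h changes of each pathway list, and the 5 genes other than members most correlated with Chac1 or with the members' mean.

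Within a time, the deviations of CA1 and CA3 arrays that carry 1 number correlated at 0.57 (T0), 0.67 (30 min), 0.58 (3 h) and 0.57 (12 h), so numbers were taken to pair regions within a time, and fits on pair differences and pair means were run. Between T0 and later times the correlations ran from -0.24 to 0.31, so times were not paired. On pair means the moderated SE of a member's change from T0 was 0.58 for Atf3 and 0.43 for Ddit3. It was 0.28 for Asns, 0.26 for Ppp1r15a, 0.23 for Atf4, 0.20 for Chac1 and 0.19 for Trib3. Whether replicates came from separate animals is not stated, and p-values measure the spread between these arrays. The fit was tested on simulated data of 15866 probe sets, 5 sets: at 12 h over both regions it recovered 56% of 2-fold and 87.2% of 4-fold changes, and 4.41% of its calls were false. The simulated arrays were drawn independently, without the correlation between CA1 and CA3 arrays of 1 number. These shares therefore need not hold for the real arrays, and the false share among the real calls is not known. Alternatives were normalization, a low-value filter, eBayes options, control-signal covariates, probe set choice, replicate blocks and left-out arrays.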

Additional observations from a re-analysis of the deposited data

How the results depend on the processing

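The members' changes from T0 moved by over the replicate SD in 5 of 567 recomputed values and none changed sign by more than that SD: Atf4 at 30 min (0.14) and 12 h (0.74) and Ppp1r15a at 12 h (0.41) with the spike-in signal as a covariate, Atf3 at 30 min (2.20) without the second 30 min and 12 h arrays, and Ddit3 at 3 h (0.81) without the second 3 h arrays; the cause was not tested. The 1505 region and interaction values stayed on their side of the threshold. The counts called, in time order 17, 29 and 328 probe sets and 0, 0 and 7 pathway genes, depended on the setting. With the replicate number as a block they were 49, 92 and 1302 probe sets and 21 pathway genes at 12 h. With the replicate block as pair means, which treats paired arrays as 1 sample, they were 0, 0, 0 and 0; as a pair fit, region contrasts gave 33 over 4 times and 1 at 12 h. With the spike-in signal as a covariate the counts were 2 at 30 min, 4 at 12 h and 0 pathway genes at 12 h. With the GAPDH signal they were 69, 50 and 2014 probe sets, and 1, 1 and 25 pathway genes. With only the arrays of the groups compared they were 0, 1 and 598 probe sets and 15 pathway genes at 12 h. Without the second 30 min and 12 h arrays they were 0, 1 and 1 probe sets and 0 pathway genes, and without the second 3 h arrays 3 at 30 min and 0 at 3 h. Cyclic loess called 1 pathway gene at 3 h. Leaving out single arrays gave 0 to 18 probe sets at 30 min, 0 to 51 at 3 h and 55 to 474 at 12 h, 0 to 12 pathway genes at 12 h, and 0 to 6 for CA1 minus CA3 at T0 and 0 to 1 at 30 min, with 0 to 1 for each interaction. The 16 named pathway genes were recomputed at 12 h in 27 settings each: 73 values lost and 30 gained the threshold, and 0 of those past the threshold on either side changed sign. With 2 arrays a group, small differences between regions could mostly not be detected.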
